A study of Mus musculus with 2 samples.

Results

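The 10 genes described here encode proteins of the myelin sheath or of the cell that builds it: Mbp, Mog, Mag, Mobp, Cnp, Cldn11, Mal, Opalin, Ermn and Pllp. They were chosen by name and not by a measured value, and each name was found once among the 31053 genes of both libraries. Single cells came from the lateral striatum of male C57/BL6 mice and were sorted by FACS if they carried A2B5, an antigen of early glial progenitors, or O4, an antigen of later cells of the lineage, or both. The ipsilateral library came from the side of an occlusion of the middle cerebral artery (MCAO) that lasted 60 minutes on postnatal day 10. The contralateral library came from the opposite side of operated brains, so it is no uninjured control, and both were taken after 2 weeks of reperfusion. Each library pooled the striata of 3 animals. With 1 library per side no difference has a replicate check, no test was made, and every interval given is a 95% interval that covers counting error only.

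Myelin is made by oligodendrocytes, which wrap axons with a membrane that is compacted into many layers. The lineage runs from dividing precursors through newly formed, premyelinating cells to mature cells, and the genes of the sheath are known to switch on along that path. Mbp encodes myelin basic protein, which holds the cytoplasmic faces of the membrane together, and Mobp encodes a small protein of the same compact layers. Cldn11 forms the tight junctions between the layers, Mag is an adhesion molecule of the layer that faces the axon, and Mog is a protein of the outermost surface. Cnp encodes an enzyme of the uncompacted channels, and Mal and Pllp (plasmolipin) are proteolipids that sort membrane to the sheath. Opalin is a membrane glycoprotein of oligodendrocytes, and Ermn (ermin) binds the actin cytoskeleton of late oligodendrocytes.

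The members lie on 9 chromosomes of the mouse build GRCm38 in the GENCODE M21 annotation, and all are protein-coding. Of the members the results turn on, Pllp (chr8:94674894-94696278, minus strand) and Cnp (chr11:100574904-100591729, plus strand) were over 2-fold the level of neuroblast-like cells in precursors of both libraries. Mag (chr7:30899176-30914873, minus strand) spread over a wide range among newly formed cells, and Mobp (chr9:120149707-120181484, plus strand) and Mal (chr2:127633226-127656695, minus strand) were low in newly formed cells with few UMIs of mature markers. The 250 bases before the start of these 5 genes are shown as examples of the early, intermediate and late pattern. They are the RefSeq promoters on GRCm38.p6, at chr8:94696243-94696492 and chr7:30914864-30915113 and chr2:127656696-127656945 on the minus strand for Pllp, Mag and Mal, and at chr11:100574689-100574938 and chr9:120149492-120149741 on the plus strand for Cnp and Mobp. Capitals mark CTGGCAC, the core word of the motif bound by the myelin gene regulatory factor MYRF, and ACAAAG or ACAATG, words bound by SOX factors such as SOX10, each on either strand.
Pllp: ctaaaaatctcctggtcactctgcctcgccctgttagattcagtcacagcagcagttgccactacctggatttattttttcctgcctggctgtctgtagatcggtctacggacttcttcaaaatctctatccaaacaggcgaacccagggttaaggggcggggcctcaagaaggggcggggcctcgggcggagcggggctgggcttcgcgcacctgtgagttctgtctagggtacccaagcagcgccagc
Cnp: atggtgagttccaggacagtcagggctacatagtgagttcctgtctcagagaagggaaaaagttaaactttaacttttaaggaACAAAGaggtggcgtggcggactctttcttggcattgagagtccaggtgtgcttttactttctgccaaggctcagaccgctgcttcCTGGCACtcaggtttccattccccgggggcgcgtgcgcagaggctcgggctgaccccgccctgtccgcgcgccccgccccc
Mag: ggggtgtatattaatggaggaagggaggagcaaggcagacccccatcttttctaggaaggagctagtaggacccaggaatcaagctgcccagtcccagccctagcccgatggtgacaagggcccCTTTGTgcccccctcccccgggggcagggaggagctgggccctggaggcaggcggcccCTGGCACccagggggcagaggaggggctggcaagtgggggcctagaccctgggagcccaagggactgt
Mobp: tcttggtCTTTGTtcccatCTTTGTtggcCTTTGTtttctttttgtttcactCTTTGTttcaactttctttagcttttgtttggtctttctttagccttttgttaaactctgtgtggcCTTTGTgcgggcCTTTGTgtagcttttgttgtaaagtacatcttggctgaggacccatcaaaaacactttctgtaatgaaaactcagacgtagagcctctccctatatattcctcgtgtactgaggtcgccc
Mal: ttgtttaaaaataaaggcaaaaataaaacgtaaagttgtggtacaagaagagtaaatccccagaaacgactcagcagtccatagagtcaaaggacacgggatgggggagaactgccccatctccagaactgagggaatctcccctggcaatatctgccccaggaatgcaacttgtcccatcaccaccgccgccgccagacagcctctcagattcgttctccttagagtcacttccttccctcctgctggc

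A promoter was used for 9 of the 10 members, all but Mbp, and the first listed start of each gene was taken. The MYRF word was found in 2 of the 9, at position -68 from the start of Mag and at -81 from that of Cnp. It was found in 4.19% of 32851 mouse promoters of the same length, which count every listed start of 27025 genes. Mag has further listed starts: start 2 held a MYRF word at -9 and a SOX word, and start 3 held neither. A SOX word was found in 5 of the 9, those of Mag, Mobp, Cnp, Opalin and Ermn, and in 25.2% of all promoters. Mobp had 6 SOX matches. The promoters of Mog, Cldn11, Mal and Pllp held neither word in these 250 bases. The words do not overlap each other, and a match is a run of letters, not a measured binding site.

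The ipsilateral library held 2775 barcodes and 54788795 UMIs (unique molecular identifiers, each standing for 1 captured RNA molecule), with a median of 17607 per barcode. The contralateral library held 2066 barcodes and 36063045 UMIs, with a median of 13238.5, and the libraries shared 0 barcodes. After filters on genes, mitochondrial UMIs and likely doublets, 2443 ipsilateral and 1879 contralateral cells were kept. Cells were clustered with the members and 37 other myelin genes left out, and clusters were named from markers that are not members, with "-like" implied in every name. Precursors, marked by Pdgfra and Cspg4, were 376 ipsilateral and 293 contralateral cells, newly formed oligodendrocytes, marked by Gpr17, Bmp4 and Enpp6, were 263 and 146 cells, and mature oligodendrocytes, marked by Apod, Trf and Car2, were 822 and 365 cells. The label calls the cells oligodendrocytes, but neuroblast-like cells made up 22.1% of the ipsilateral and 30.6% of the contralateral library and endothelial-like cells 5.12% and 9.63%. A further 11.1% and 14.6% of cells stayed unnamed, among them a cluster of 150 ipsilateral and 165 contralateral cells led by the microglia genes C1qa and C1qb that also carried mature oligodendrocyte markers. The mix of clusters within a stage differed between the libraries, though each of these clusters held cells of both. Cluster 5 held 194 of 376 ipsilateral precursors and cluster 10 held 138 of 263 ipsilateral newly formed cells, both narrow majorities. Cluster 0 held 216 of 293 contralateral precursors and cluster 9 held 86 of 146 contralateral newly formed cells.

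The members together took 3.19% (3.18 to 3.19) of ipsilateral UMIs and 2.63% (2.62 to 2.63) of contralateral UMIs. Mature cells held 75.6% of all ipsilateral and 58.3% of all contralateral UMIs of the members. Precursors held 0.64% and 0.61% and newly formed cells 7.40% and 10.1%, and the rest lay in other named classes and in unnamed cells. Mature cells were also a larger share of the ipsilateral library, 33.6% (31.8 to 35.6) against 19.4% (17.7 to 21.3) of kept cells. The unnamed cluster led by C1qa and C1qb, with 150 ipsilateral and 165 contralateral cells, is not counted as mature here. Counting it would raise the mature share of cells in both libraries, more so contralaterally, so the size of this contrast depends on the naming rule. Within the stages the members took 0.20% of ipsilateral and 0.17% of contralateral UMIs in precursors, 1.71% and 2.14% in newly formed cells, and 5.18% and 5.01% in mature cells. The share of the library therefore differed by more than the share within mature cells did. Levels below are in CPM, the UMIs of a gene scaled to the same total of all UMIs in the same cells.

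Along the stages the level of all 10 members was higher in mature cells than in precursors in both libraries, but the size of the step differed among them. The median member was 49.6-fold higher in mature cells than in precursors in the ipsilateral library and 64.8-fold higher in the contralateral library. Past a fold of 1.5, after 5 CPM had been added to each level, 10 of 10 members were higher in mature cells ipsilaterally and 9 of 10 contralaterally, where 12.5% and 12.6% of all genes tested were. Pllp was the exception on the contralateral side. Newly formed cells were past the same fold over precursors for 9 of 10 members in each library, against 9.76% of genes ipsilaterally and 10.8% contralaterally, with Pllp again the one that was not. For Mal, Ermn, Opalin and Mobp this step rested on a small group of newly formed cells rich in mature markers, described below with the maturity index. In the other newly formed cells, those with an index under 0.2, Mal was 123.2 CPM in ipsilateral and 87.8 CPM in contralateral cells, against 137.5 and 113.2 CPM in precursors. Mobp was 129.8 and 89.9 CPM there, against 94.3 and 85.5 CPM in precursors. Opalin was 27.5 and 18.5 CPM, against 22.0 and 17.5 CPM, and Ermn was 23.5 and 19.4 CPM, against 29.1 and 19.1 CPM. Mature cells were past it over newly formed cells for 8 of 10 members in each library, against 11.3% and 9.83% of genes, the exceptions being Mbp and Pllp.

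**Figure D1:**
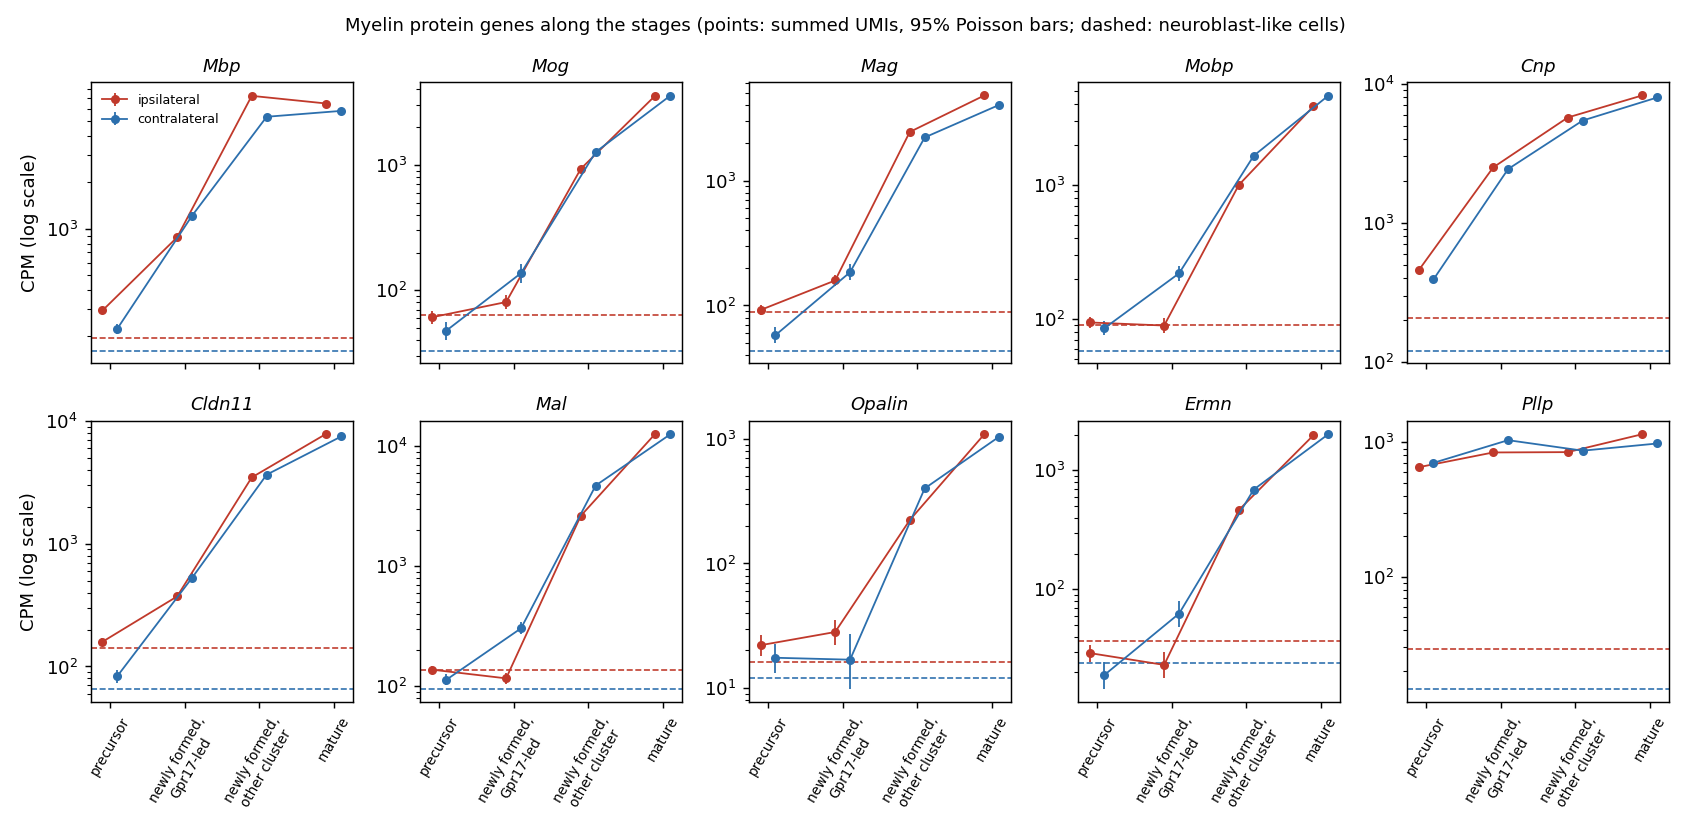
Level of each member in CPM (log scale) in precursors, the Gpr17-led newly formed cluster, the other newly formed cluster and mature cells; red points are the ipsilateral and blue points the contralateral library, bars are 95% Poisson intervals, and dashed lines give the level in neuroblast-like cells of the same library. Pllp sits far above its dashed lines from the precursors on, whereas Mal, Mobp, Opalin and Ermn lie near theirs in ipsilateral cells until the other newly formed cluster.

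UMIs of the members were also found at a low level in cells that do not make myelin, so that level was measured before precursors were read. Neuroblast-like cells, recognised by Dcx, Dlx1 and Sox11, gave 196.7 CPM of Mbp in the ipsilateral and 162.0 CPM in the contralateral library, which is 3.04% and 2.79% of the mature level. Over the members, the neuroblast-like level had a median of 1.85% of the mature level ipsilaterally and 1.17% contralaterally. Thinned to 5000 UMIs per cell, which left out 65 ipsilateral and 50 contralateral neuroblast-like cells, 59.0% and 55.2% of them had a UMI of Mbp. At their full depth, a median of 11753 and 12027 UMIs, 82.8% and 79.1% of neuroblast-like cells had one. A share of cells with a UMI is therefore no sign of expression for most of these genes, and levels in the lineage are given beside the neuroblast-like level. In endothelial-like cells 8 members lay between 0.58-fold and 1.14-fold the neuroblast-like level, and Mal and Pllp stood above it. Mal was 361.7 CPM in ipsilateral and 361.1 CPM in contralateral endothelial-like cells, 2.65-fold and 3.81-fold the neuroblast-like level, and Pllp was 240.8 and 211.3 CPM, 8.37-fold and 14.5-fold. Cnp was 486.5 CPM in 22 ipsilateral and 306.1 CPM in 28 contralateral astrocyte-like cells, 2.33-fold and 2.53-fold the neuroblast-like level.

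In precursors, Pllp, the plasmolipin gene, was the member furthest above this background. It was 653.4 CPM (631.6 to 675.7) in ipsilateral and 704.4 CPM (675.4 to 734.4) in contralateral precursors, 22.7-fold and 48.2-fold the neuroblast-like level. At 5000 UMIs per cell, 95.6% of 361 ipsilateral and 95.04% of 282 contralateral precursors had a Pllp UMI, against 10.7% and 8.38% of neuroblast-like cells. Pllp in precursors was already at 56.7% of its mature level ipsilaterally and at 71.8% contralaterally. Its level also differed between the precursor clusters: cluster 0, led by Cspg5 and Pdgfra, gave 830.7 CPM in ipsilateral and 790.9 CPM in contralateral cells. Cluster 5, led by Ccnd1 and Gap43, a cyclin and a growth-associated protein, gave 529.96 CPM ipsilaterally and 503.8 CPM contralaterally.

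Cnp, the enzyme gene, was the only other member at over 2-fold the neuroblast-like level in precursors of both libraries, with 455.1 CPM (437.0 to 473.8) in ipsilateral and 392.6 CPM (371.0 to 415.1) in contralateral cells. These were 2.18-fold and 3.24-fold the neuroblast-like level, and 5.52% and 4.93% of the mature level. Astrocyte-like cells, which are few, reached similar Cnp levels, 486.5 CPM (401.7 to 584.0) ipsilaterally and 306.1 CPM (246.2 to 376.3) contralaterally, so the ipsilateral precursors did not exceed them. Mbp stood at 1.497-fold and 1.39-fold the neuroblast-like level, with 294.5 CPM ipsilaterally and 224.7 CPM contralaterally. The top 5% of precursors held 27.0% of ipsilateral and 26.0% of contralateral Mbp UMIs, close to the 23.5% and 21.4% of neuroblast-like cells. At equal depth the variance of the Mbp count was 4.89 times its mean in ipsilateral and 3.87 times in contralateral precursors, against 1.51 and 1.18 times in neuroblast-like cells. For Mog, Mag, Mobp, Cldn11, Mal, Opalin and Ermn the precursor level lay between 0.80-fold and 1.35-fold the neuroblast-like level in the ipsilateral library and between 0.79-fold and 1.47-fold in the contralateral library. These 7 levels lay within 1.5-fold of the background and are not read as expression by precursors.

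The newly formed stage was read through its 2 clusters and through a maturity index that uses no member. The index of a cell is the UMIs of 15 mature markers over the UMIs of all precursor, newly formed and mature markers. Cluster 10, led by Bmp4 and Gpr17, held 138 ipsilateral and 60 contralateral cells, and cluster 9, led by Frmd4a, Tmem108 and Tcf7l2, held 125 and 86. Few cells had a middle index: of its 10 bins of equal width, only the bins below 0.2 and the bin above 0.9 held 20 cells or more in a library. A boundary at 0.2, chosen after the values were seen, left 31 of 263 ipsilateral newly formed cells (11.8%, 8.15 to 16.3) and 30 of 146 contralateral ones (20.5%, 14.3 to 28.0) at or above it. These cells had median depths of 54203 ipsilateral and 59836 contralateral UMIs, against 20936 and 18735 UMIs in the newly formed cells below 0.2. Their median doublet scores were 0.17 ipsilaterally and 0.10 contralaterally, against 0.02 and 0.02, and values of this stage are given with and without them. Whether they are doublets of newly formed and mature cells was not tested.

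Below an index of 0.2 the members fell into an early and a late set. Cells below it have a low share of mature marker UMIs by definition, so low levels of late genes there follow in part from the boundary. Pllp, Mbp and Cnp were high there, with Mbp at 4021 CPM (3968 to 4074) in ipsilateral and 3666 CPM (3589 to 3745) in contralateral cells, 62.1% and 63.3% of the mature level. Cnp was 3749.9 CPM and 3665 CPM, 45.5% and 46.0% of its mature level, and Pllp was 800.1 CPM and 833.2 CPM, 69.5% and 84.9%. Mag and Cldn11, which serve adhesion to the axon and the tight junctions between layers, were intermediate. Mag was 883.1 CPM ipsilaterally and 734.3 CPM contralaterally, 18.4% and 18.2% of its mature level and 9.89-fold and 16.8-fold the neuroblast-like level. Cldn11 was 1233 CPM and 1101 CPM, 15.7% and 14.7% of its mature level.

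Mal and Ermn did not exceed the neuroblast-like level in the same cells, and Mobp and Opalin were within 2-fold of it. Mal, the sorting proteolipid, was 123.2 CPM (114.0 to 132.9) in ipsilateral and 87.8 CPM (76.1 to 100.7) in contralateral cells, 0.90-fold and 0.93-fold the neuroblast-like level and 0.97% and 0.70% of its mature level. Ermn was 23.5 CPM and 19.4 CPM, 0.64-fold and 0.80-fold the neuroblast-like level. Mobp stood at 1.45-fold and 1.54-fold, Opalin at 1.69-fold and 1.54-fold, and Mog, the outer surface protein, at 2.03-fold and 3.93-fold. The order of the 5 members with the highest share of their mature level was the same in both libraries, Pllp, Mbp, Cnp, Mag and Cldn11, and so was that of the other 5, Mog, Mobp, Opalin, Ermn and Mal. From Mobp down, the levels lay too near background for their order to be read.

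**Figure D2:**
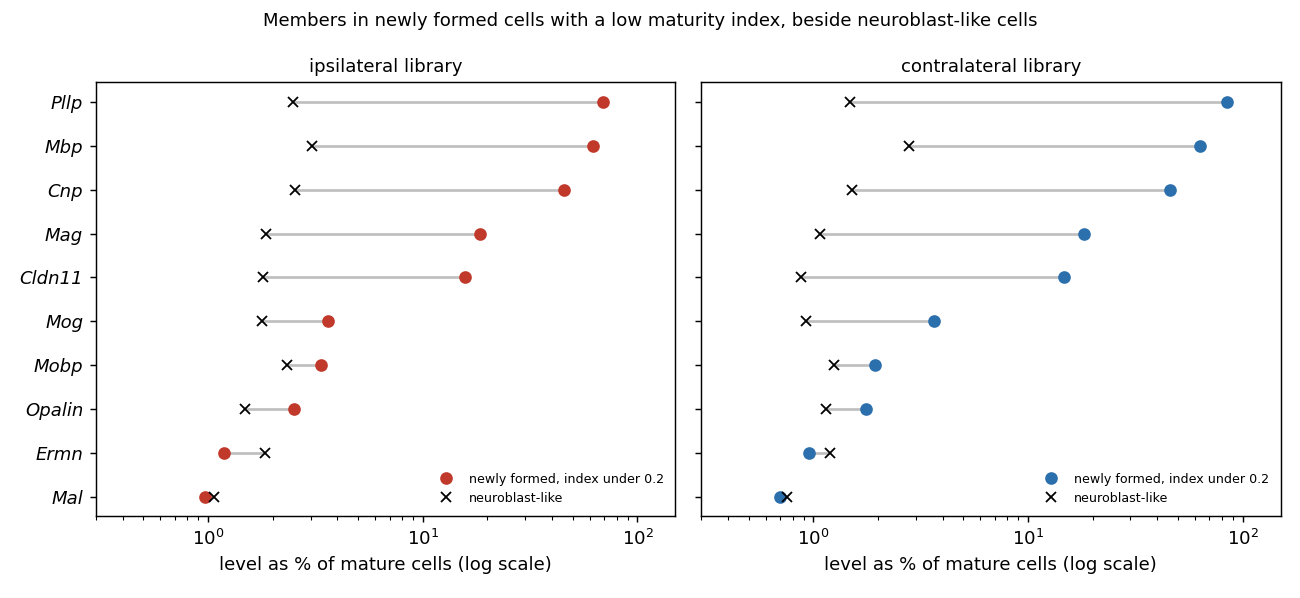
Level of each member in newly formed cells with a maturity index under 0.2 (filled circles) and in neuroblast-like cells (crosses), as a percentage of the member's own level in mature cells of the same library, on a log scale; left, ipsilateral library, and right, contralateral library. From Pllp down to Cldn11 the circle lies far to the right of its cross, while for Mal the circle, at 0.97% ipsilaterally and 0.70% contralaterally, lies just left of it.

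Single cells were set against the 10th percentile of each member among mature cells. Of the newly formed cells below 0.2, 64 of 232 ipsilateral (27.6%) and 29 of 116 contralateral (25.0%) reached that of Mbp in the same library. For Pllp 122 (52.6%) and 80 (69.0%) did, but for Cnp, also high at this stage, only 19 (8.19%) and 8 (6.90%). Mog, Mobp and Ermn had 0 such cells in both libraries, Opalin 5 ipsilateral and 0 contralateral, and Cldn11 0 and 1. For Mal 0 of 232 and 0 of 116 did, and its highest value was 420.6 CPM in an ipsilateral and 371.0 CPM in a contralateral cell, against 6817 and 8343 CPM at the 10th percentile of mature cells. At an index of 0.2 or over the median cell had 6420.3 CPM of Mal ipsilaterally and 8189.5 CPM contralaterally. Mal was low in all cells with a low index and high in most with a high one, with few values between. The index counts UMIs of mature markers and few cells had a middle index, so this split follows in part from the boundary. The cells at 0.2 or over also had higher depths and doublet scores. Mag spread more widely below 0.2, up to 7859 CPM in an ipsilateral and 4015 CPM in a contralateral cell, at medians of 216.1 and 202.9 CPM. Its 10th percentile among mature cells was reached by 8 of 232 (3.45%) and 2 of 116 (1.72%).

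**Figure D3:**
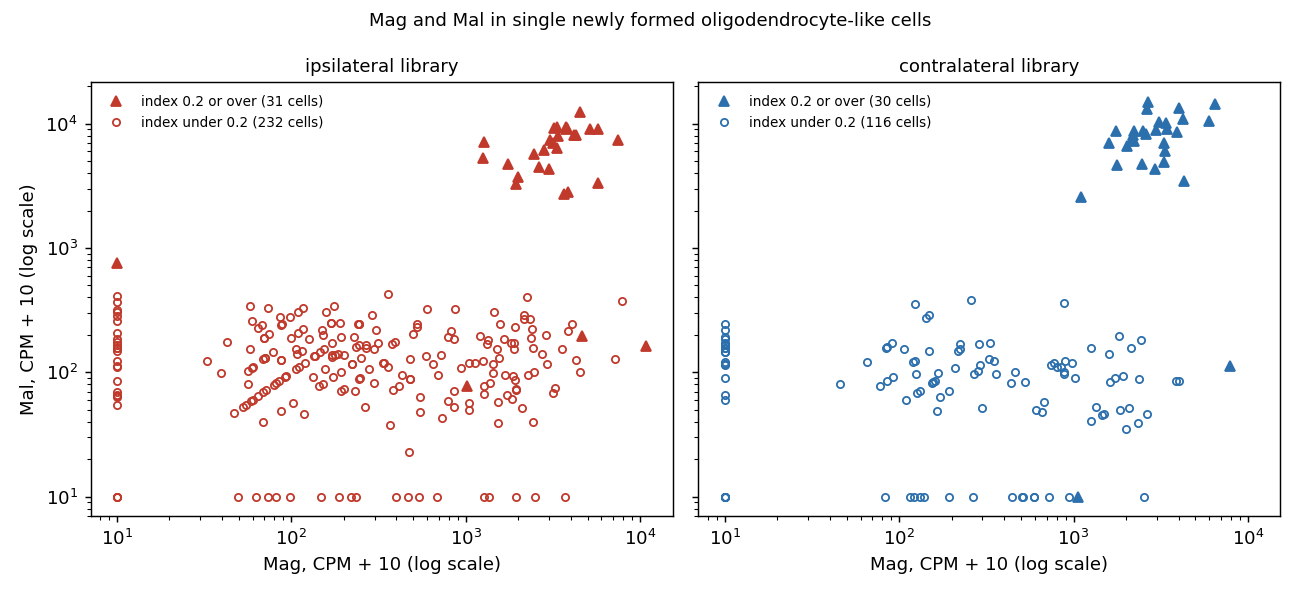
Mag (x axis) and Mal (y axis) in each newly formed cell, both in CPM with 10 added and on log scales; triangles are cells with a maturity index of 0.2 or over (31 ipsilateral, 30 contralateral), open circles cells under 0.2 (232 and 116), left ipsilateral and right contralateral. Circles spread along the Mag axis at low Mal, and most triangles form a separate group with high levels of both.

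The clusters placed most of the early signal in cluster 9. Below an index of 0.2 Mbp was 7358 CPM in ipsilateral and 5442 CPM in contralateral cells of cluster 9, 113.7% and 93.9% of the mature level. In the Gpr17-led cluster 10 it was 878.0 CPM and 963.5 CPM. Mag was 1652 CPM ipsilaterally and 1151 CPM contralaterally in cluster 9, and 158.6 CPM and 99.8 CPM in cluster 10. Cnp differed less between them, at 5072 CPM and 4591 CPM in cluster 9 and 2505 CPM and 2257 CPM in cluster 10. Pllp ran the other way, with 755.2 CPM and 691.3 CPM in cluster 9 and 842.4 CPM and 1049 CPM in cluster 10.

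Over all newly formed cells the late members were lower on the ipsilateral side, and below an index of 0.2 none of them was lower past 1.5-fold. Levels were compared as the log2 ratio of ipsilateral to contralateral CPM after 5 CPM had been added to each, over genes with at least 50 UMIs in both libraries together. The members' median ratio was -0.56, against 0.01 over all 10296 genes tested. Of the 10 members, 5 were lower by more than 1.5-fold, where 2.07% of genes were, and 0 were higher, where 1.04% were. Mal was 1631 CPM (1601 to 1661) ipsilaterally and 3658 CPM (3601 to 3717) contralaterally, a log2 ratio of -1.16. Opalin was 145.6 and 309.2 CPM (-1.06), Mobp 638.5 and 1311 CPM (-1.03), Ermn 288.7 and 540.7 CPM (-0.89) and Mog 591.8 and 996.5 CPM (-0.75). Cldn11 had a ratio of -0.38, Mag of -0.17, Pllp of -0.10, Cnp of -0.09 and Mbp of 0.12.

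The cells with an index of 0.2 or over held 94.2% of ipsilateral and 98.7% of contralateral Mal UMIs of the stage, and 84.3% and 96.2% of those of Mobp. They held 34.2% and 53.4% of the Mbp UMIs and 26.9% and 49.5% of the Pllp UMIs. The index is built from mature markers, so leaving these cells out removes RNA of late genes by construction. In them Mal was 6727 CPM ipsilaterally and 8029 CPM contralaterally, Mobp 2358 and 2807 CPM, Opalin 544.8 and 665.0 CPM, Ermn 1185 and 1179 CPM, and Mog 2156 and 2057 CPM. Without them the members' median ratio was 0.19 and 0 of 10 members were past 1.5-fold. The share of all genes past that fold is not given for these cells or for the stricter filter below. Mog then had a ratio of -0.01, Mobp of 0.51, Mal and Opalin of 0.47 each and Ermn of 0.23. The last 4 of these lay near or below the neuroblast-like level in cells under 0.2, so no direction is read from them. In neuroblast-like cells the ratios were 0.58 for Mobp, 0.50 for Mal, 0.33 for Opalin and 0.51 for Ermn. The 15 mature markers, none of them a member, summed to 4422 CPM in ipsilateral and 6176 CPM in contralateral newly formed cells. The same markers define the index, and high-index cells were a larger share contralaterally, so this sum is no separate check. Within clusters the median ratio was -0.26 in cluster 9, with 3 of 10 members lower past 1.5-fold where 2.48% of genes were. In cluster 10 it was -0.48, with 4 lower where 3.66% were and 1, Opalin, higher where 2.55% were, at 79 ipsilateral and 17 contralateral UMIs. In cluster 10, 1 cell in each library had an index of 0.2 or over. The contralateral one carried much of its late RNA, since the 59 other cells held 28.4% of that cluster's Mal UMIs and 37.6% of its Mobp UMIs. Under a stricter filter on cells (at least 1000 genes and at most 10% mitochondrial UMIs, clustered anew) the median ratio of the stage was -0.00011 and 1 member was past the fold. The part of the high-index cells in the difference between the sides beyond these values was not tested.

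In precursors no direction between the sides is read, since it changed with the processing and most of these levels were near background. The median log2 ratio was 0.29, against -0.06 over all 10833 genes, and 9 of 10 members lay above 0. Cldn11 was 158.9 CPM (148.3 to 170.1) in ipsilateral and 83.6 CPM (73.8 to 94.3) in contralateral precursors, a log2 ratio of 0.89. Mag was 92.0 CPM (84.0 to 100.6) and 57.9 CPM (49.8 to 66.9), a ratio of 0.63. These 2 of 10 members were higher past 1.5-fold, where 1.6% of all genes were, and 0 were lower, where 1.61% were. In neuroblast-like cells Cldn11 was 141.9 CPM ipsilaterally and 65.6 CPM contralaterally (1.06) and Mag 89.3 and 43.6 CPM (0.96).

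Over all members the neuroblast-like median ratio was 0.67, with 10 of 10 above 0 and 5 higher past 1.5-fold where 0.575% of genes were. In endothelial-like cells it was 0.52 over all 10 members, of which 9 had at least 50 UMIs. Of these 9, Cnp, Mag, Mog and Cldn11 were higher past 1.5-fold, where 3.1% of genes were. Opalin had a ratio of 0.76, but its 20 ipsilateral and 13 contralateral UMIs fall below that minimum. Mal (0.00) and Mbp (0.03) lay near 0 there. The median ratio in precursors was thus below that in neuroblast-like cells. With the neuroblast-like level of the same library subtracted, an alternative added after the data were seen, the precursor median was -0.14, Mag had a ratio of -1.32 and Cldn11 of -0.06. The median was also -0.086 under Scrublet's own doublet calls and -0.048 with cells called by marker score, so its direction depended on these choices. The part of free RNA in the precursor difference was not tested further. Pllp, the member furthest above background, had a ratio of -0.11 over all precursors. Within cluster 0 and within cluster 5 its ratio was 0.07 each. Cluster 5, where Pllp is lower, held 194 of 376 ipsilateral and 77 of 293 contralateral precursors.

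**Figure D4:**
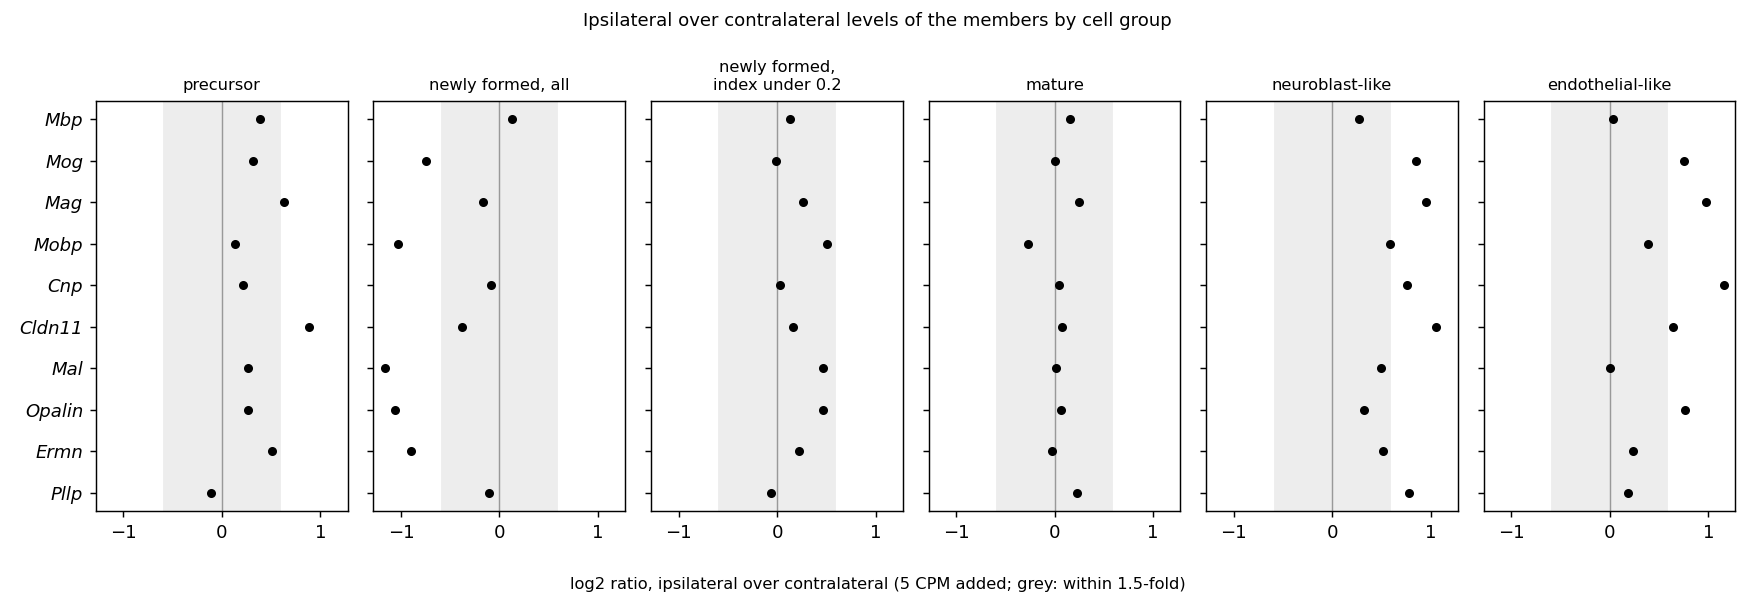
Log2 ratio of ipsilateral to contralateral CPM (5 CPM added to each) of the 10 members in 6 groups of cells; each point is 1 member, and the grey band marks ratios within 1.5-fold. Mal, Opalin, Mobp, Ermn and Mog lie left of the band in all newly formed cells and inside it in those with a maturity index under 0.2, and all 10 members lie inside it in mature cells.

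In mature oligodendrocytes the levels of the members differed by less than 1.5-fold between the sides. The median log2 ratio was 0.06, against 0.01 over 10595 genes, and 0 of 10 members were past 1.5-fold in either direction, where 0.783% of genes were. The count is near that share and is not read as particular to the members. Mal was 12745.5 CPM (12700.2 to 12791) in ipsilateral and 12592 CPM (12524 to 12660.1) in contralateral mature cells, Cnp 8247 and 7970.4 CPM, and Cldn11 7874 and 7485 CPM. Mog was 3576 CPM ipsilaterally and 3566 CPM contralaterally, Ermn 1976 and 2018 CPM, and Opalin 1094 and 1046 CPM. These 6 had ratios between -0.03 and 0.07. The furthest from 0 were Mobp at 3863 CPM (3838 to 3888) and 4651 CPM (4609.6 to 4692), a ratio of -0.27, and Mag at 4805.5 CPM (4778 to 4833) and 4040.4 CPM (4002 to 4079), a ratio of 0.25. Within mature clusters 1, 2, 6 and 8 the ratios of Mobp were -0.19, -0.27, -0.21 and -0.35. Those of Mag were 0.27, 0.23, 0.20 and 0.26. Pllp was 1152 and 981.7 CPM (0.23) and Mbp 6469.9 and 5795 CPM (0.16). The intervals cover counting error only and are narrow at these UMI sums, so a gap between them is not read as a difference between the sides. Whether another pair of libraries would differ as much cannot be told from 1 library per side.

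Both libraries were present in all 4 mature clusters, and 1 of them lay mostly on the ipsilateral side. Cluster 8, led by Ifi27l2a, C4b and Serpina3n, an interferon-induced gene, a complement gene and a protease inhibitor gene, held 197 ipsilateral and 20 contralateral cells. In the ipsilateral library its members lay between 0.86 and 1.06 of their level over all mature cells, the lowest being Mal (0.86) and Mobp (0.87). Mature ipsilateral cells with a UMI of C4b or Serpina3n (287 cells, median 27248 UMIs) had 0.88 times the Mal level and 0.89 times the Mobp level of those without (535 cells, median 28779 UMIs). Mbp in the same cells was 1.04 times and Mag 0.996 times the level of cells without. The 10 members lay between 0.88 and 1.04, and the same comparison was not made over all genes. In the contralateral library 39 mature cells had such a UMI and 326 did not. Mal was 12446 CPM in the cells with one and 12612 CPM in those without, and Mobp was 4282 and 4702 CPM.

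Opalin, which was left out of the clustering like all members, varied more among mature clusters than the other 9 did, in both libraries. It was 1559 CPM in ipsilateral and 1473 CPM in contralateral cells of cluster 1, led by Ptgds and Opalin itself among other genes, and 556.9 CPM and 557.2 CPM in cluster 2, led by Hapln2 and Pmp22. The highest cluster was 2.80-fold the lowest ipsilaterally and 2.64-fold contralaterally. Mal followed with 15219 CPM and 14712 CPM in cluster 1 and 10333 CPM and 10132 CPM in cluster 2, a range of 1.47-fold and 1.45-fold. The other 8 members ranged by 1.07-fold to 1.25-fold over the clusters. Opalin also varied widely among single mature cells: 10% of ipsilateral cells had less than 133.9 CPM of Opalin and 10% more than 1857 CPM, and for contralateral cells the bounds were 241.7 and 1805 CPM. For Mbp the same bounds were 4597 and 8387 CPM ipsilaterally and 4346 and 7409 CPM contralaterally.

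**Figure D5:**
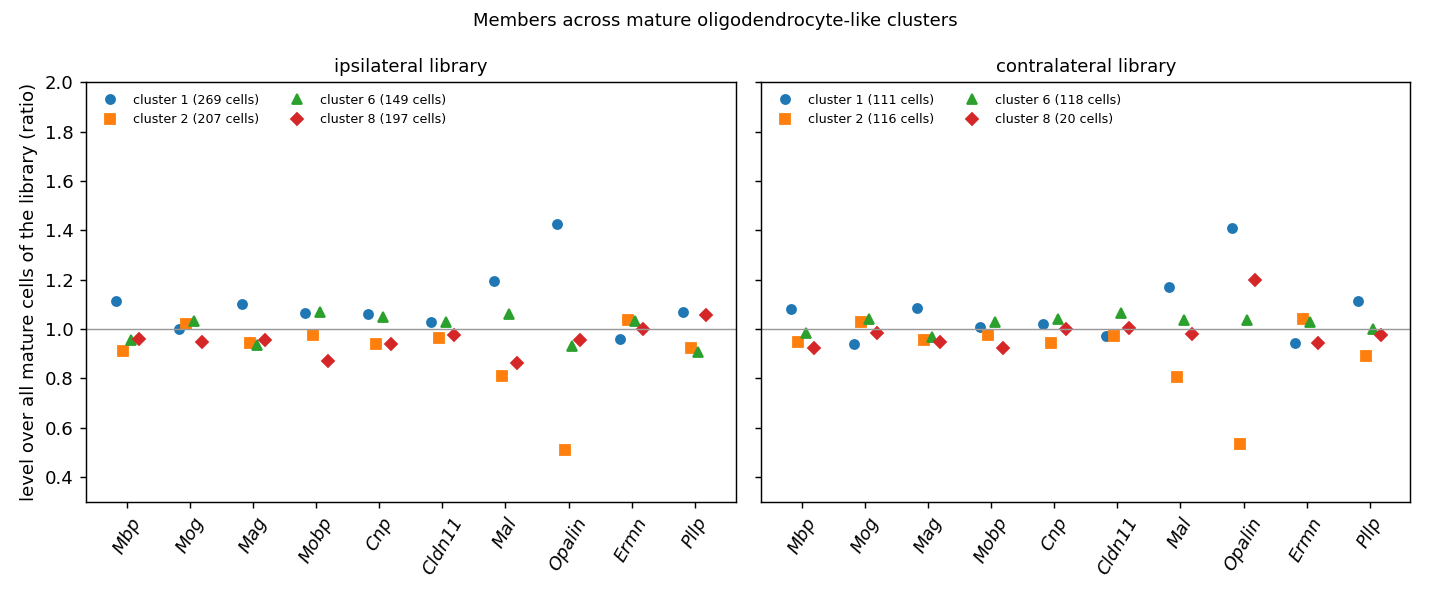
Level of each member in each mature cluster divided by its level over all mature cells of the same library (1.0, grey line); left ipsilateral and right contralateral, with symbols for the clusters and their cells given in the legend. Opalin spreads from cluster 2 at the bottom to cluster 1 at the top in both libraries, Mal spreads less, and the other members lie close to the line.

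The 37 other myelin genes, which include septins, tetraspanins and adhesion molecules of the sheath, were compared in the same way. In mature cells 0 of 37 were past 1.5-fold, where 0.783% of all genes were, with a median ratio of 0.01, 20 above and 17 below 0. The 6 furthest from 0 were Cd9, a tetraspanin, at 896.0 CPM ipsilaterally and 671.7 CPM contralaterally (0.41), Pmp22 (0.25), the unconventional myosin Myo1d (-0.23), the ephrin Efnb3 (-0.21), the connexin gene Gjb1 (0.19) and the deacetylase gene Sirt2 (0.17). In newly formed cells 12 of 37 were lower past 1.5-fold, where 2.07% of all genes were, and 0 were higher, where 1.04% were, with a median of -0.37. This includes the high-index cells, 11.8% of ipsilateral and 20.5% of contralateral newly formed cells. The list was not compared below an index of 0.2, so this count is no separate check on the members. In precursors 1 of the 32 with enough UMIs was lower, where 1.61% of genes were, and 0 were higher, where 1.6% were. The median of these 32 was -0.01, with 15 above and 17 below 0, against 0.29 for the members. Efnb3 was 70.4 CPM in ipsilateral and 158.4 CPM in contralateral newly formed cells. Not every gene of this list is highest in mature cells: Cd9 was 1741 CPM in ipsilateral and 1925 CPM in contralateral precursors, 4862 and 4916 CPM in newly formed cells, and 896.0 and 671.7 CPM in mature ones. Sirt2 was likewise highest in newly formed cells, at 3737 and 3311 CPM.

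The profile over cell types set Pllp apart from the other members. Over 14 points, 7 cell classes in each of 2 libraries, Pearson's r between a member's log2 level and the mean of the other 9 was between 0.95 and 0.99 for 9 members and 0.73 for Pllp. Among the 5 of 13995 genes most like the mean of the members were the kinase gene Sgk2 (0.99), Bin1, which encodes a membrane-curving protein (0.98), and Kndc1 (0.98). These points share libraries, cells and free RNA, so r is a description of the profile and carries no test. At most 1.45% of the words of 31 bases in a member's transcripts occurred in another gene's transcripts. Cnp overlaps Dnajc7 on the other strand, and whether the counting used strand is not stated, so UMIs of the pair may not be fully told apart. In precursors Cnp had 2374 ipsilateral and 1235 contralateral UMIs and Dnajc7 had 841 and 472, and in mature cells Cnp had 195965 and 83193 and Dnajc7 3014 and 1330. Ermn and Pllp overlap genes with 15 and 545 UMIs over all cells.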

How the data were processed

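RNA was measured in single cells of 2 libraries by 10x Genomics droplet sequencing, 1 library per side. The authors deposited UMI counts per gene and barcode. The submitters' processing notes name Cell Ranger 3.1.0 and mm10. Not given in the sources used here were the annotation, the options of the alignment and the kit chemistry. Only barcodes called as cells are listed, so empty droplets were not measured. The members, gene lists and alternatives were chosen with earlier results of these data known.

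Barcodes with at least 500 genes and at most 15% mitochondrial UMIs were used. Doublets were treated by removing the highest Scrublet scores at 0.8% of barcodes per 1000 deposited (62 ipsilateral, 34 contralateral), because Scrublet's own thresholds (0.154 and 0.274) would call 101 and 14. Cells were scaled to 10000 counts, log-transformed and clustered together (scanpy 1.11.5, leidenalg 0.10.2) on 2000 variable genes, 30 principal components and 15 neighbours at Leiden resolution 1. The 10 members and 37 other myelin genes were left out of the variable genes.

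Cluster names rest on marker lists, with thresholds chosen once their scores were known. A cluster took the best-scoring class if that score (mean of marker level over the highest cluster level) was at least 0.3 with at least 3 markers at 0.3, and no other class outside neighbouring stages reached 0.3 and 0.6 of the best. It also stayed unnamed if its 10 leading genes held more markers of another class. Names rebuilt in this way may differ from the study's own.

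The UMIs of each class were added up within a library and are given as CPM with exact Poisson intervals; shares have exact binomial intervals (Clopper-Pearson). Log2 ratios, ipsilateral over contralateral, have 5 CPM added, which draws ratios of low genes toward 0, and were computed for every gene with at least 50 UMIs. With 1 library per side there is no p-value, and past a fold of 1.5 stands in for a call. The log2 ratios and their intervals were tested on simulated sums of the mature stage, with counting error only. Clustering, naming, doublet removal and the index were not simulated. To compare how many cells had a UMI, cells were thinned to 5000 UMIs. Genes named are the members, the 6 of the other myelin list with the largest absolute ratio in mature cells, and the 5 genes most correlated with the members' mean, of which 2 are not reported here. Cluster leaders and markers are named to identify cells. Alternatives covered the added CPM, scaling, doublets, cell filters, clustering, free RNA and the cells of a stage.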

Additional observations from a re-analysis of the deposited data

Results flagged for a closer look

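A signal of the members lay outside the cells described above, in barcodes with fewer than 500 genes, and there are no control samples to set it against. Mbp reached 1625 CPM (1460 to 1804, 353 UMIs) in 199 such ipsilateral barcodes with a median of 882 UMIs, and 1118 CPM (923.3 to 1342) in 89 contralateral ones with a median of 848 UMIs. These levels were 8.26-fold and 6.91-fold those of neuroblast-like cells of the same library. For the other 9 members the level in these barcodes was between 1.78-fold (Cldn11) and 6.25-fold (Mobp) the neuroblast-like level in the ipsilateral library and between 4.66-fold (Pllp) and 11.4-fold (Mobp) in the contralateral library. The members were not raised by 1 factor, and their level relative to each other in these barcodes differed from that in neuroblast-like cells. What these barcodes hold was not tested.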

How the results depend on the processing

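In mature cells 0 members were past 1.5-fold under every alternative run, and the median log2 ratio stayed between 0.02 and 0.08. The other results moved with the choice of cells, and the cause was not tested. Counts of members past the fold under the alternatives are given without the share of all genes, so they show only how far the counts moved. In precursors (median 0.29, 2 members past the fold) the median was -0.086 with 1 past it under Scrublet's own calls, 0.019 with 0 at Leiden resolution 0.5, -2.42 with 9 with each library clustered alone, and -0.048 with 0 with cells called by marker score. It was -0.32 with 4 after subtracting the endothelial-like and -0.14 with 5 after subtracting the neuroblast-like level, and 1 member was past the fold with 20 CPM added. Mag reversed to -0.047 under Scrublet's calls, -2.34 with libraries alone, -0.027 by marker score, -0.38 and -1.32 with the endothelial-like and neuroblast-like level subtracted. Cldn11 reversed to -0.011 at resolution 0.5, -2.40 with libraries alone and -0.061 with the neuroblast-like level subtracted. No direction is therefore read in precursors.

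In newly formed cells (median -0.56, 5 past the fold) the median was -0.00011 with 1 under the stricter filter, -1.94 with libraries alone, and 0.19 with 0 below an index of 0.2, and 3 were past it in cluster 9 alone. Opalin reversed to 0.033 under the stricter filter, 0.60 in the Gpr17-led cluster alone and 0.47 below 0.2, and Mobp, Mal and Ermn reversed below 0.2 to 0.51, 0.47 and 0.23. Below 0.2 the levels of these genes lay near background, so no direction is read from them there. The subtracted level of neuroblast-like cells, the clusters taken alone and the index boundary were chosen after seeing the data.

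The median mature over precursor log2 ratio (5.47 ipsilateral, 5.85 contralateral) was 3.11 and 3.01 at resolution 0.5, 3.05 contralaterally with libraries alone, 7.24 and 7.20 with the endothelial-like and 8.53 and 7.32 with the neuroblast-like level subtracted. The members' share of UMIs was 3.18% ipsilaterally and 2.65% contralaterally with doublets kept and under Scrublet's calls, 3.16% and 2.63% with no filter, and 3.18% and 2.62% with the stricter one. No paired analysis was possible because each side is 1 library with no replicate number.

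Depth limits Opalin and Ermn in precursors, which rest on 115 and 152 ipsilateral and 55 and 60 contralateral UMIs.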
